A study of Homo sapiens with 8 samples.

Results

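The genes described here are 42 members of the ATF4 amino acid response and the cytosolic tRNA synthetases, out of 62649 genes counted in each library. They were taken by symbol as 6 transcription regulators, 7 feedback and stress effectors, 9 enzymes of amino acid and one-carbon synthesis, 8 amino acid transporters, and 12 cytosolic aminoacyl-tRNA synthetases with the tRNA exporter XPOT. Poly-A RNA of 2 human colorectal adenocarcinoma lines, SW620 and SW480, was sequenced in 8 libraries. SW620 was derived from a lymph node metastasis and SW480 from the primary tumour of the same patient. The 4 groups of 2 libraries each were SW620 with caffeine, SW620 control, SW480 with caffeine and SW480 control. All 4 groups, controls included, came from cells that carried B8-mCherry, a fluorescent fusion of the immunoproteasome subunit PSMB8, in medium with fetal calf serum. The treatment text describes SW620 cells only, with 30, 60, 100, 250 or 500 µM caffeine for 72 h or 125 µM for 28 days. It does not say which of these the sequenced libraries had, and for SW480 it gives no dose or time. Nothing in the labels says how the 2 replicates of a group were separated beyond being biological, so the p-values measure the spread between these libraries.

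ATF4 is the transcription factor at the centre of the integrated stress response. Kinases that sense amino acid shortage, unfolded protein, viral RNA or haem shortage phosphorylate the translation factor eIF2alpha, which lowers protein synthesis in general and lets ribosomes translate the ATF4 mRNA more. ATF4 then binds, mostly with C/EBP proteins, to composite sites at genes that make, import and charge amino acids onto tRNA. It also drives CHAC1 and genes that damp the response, such as TRIB3. In tumour cells ATF4 target genes feed serine, glycine and cystine supply. ATF4 protein and eIF2alpha phosphorylation were not measured here; every value is an mRNA level.

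The sequences that carry the ATF4 signature are the composite sites near the start of transcription. The 8-letter motif TGATGNAA was searched on both strands of RefSeq promoter windows (GRCh38.p14, 250 bases before to 50 after each start). Of the 42 members 35 had such a window and 15 of these, 42.9%, held the motif, against 1217 of 27305 genes, 4.46%, over the whole table. By role the motif was found in 7 of 12 members of the synthetase group, 4 of 8 transporters, 2 of 6 regulators, 1 of 7 effectors and 1 of 9 synthesis enzymes. NUPR1, INHBE, PSPH, SHMT2, GPT2, SLC7A11 and YARS1 had no window. The sites of the 5 members that rose with caffeine in SW480 and held the motif are shown, in order of their adjusted p, with that of ASNS added after its values were seen as the textbook amino acid response element. Each is written 5′ to 3′ on the strand of its gene with the motif in capitals. Where the capitals start with TT, the motif lies on the opposite strand. Distances are those of the first capital letter, so the matches of MARS1 and CARS1 run across the start.
CHAC1, chr15:40953222-40953309, plus strand, motif 209 bases before the start: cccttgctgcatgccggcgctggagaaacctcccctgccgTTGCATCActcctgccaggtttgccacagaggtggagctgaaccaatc
AARS1, chr16:70289646-70289733, minus strand, motif 187 bases before the start: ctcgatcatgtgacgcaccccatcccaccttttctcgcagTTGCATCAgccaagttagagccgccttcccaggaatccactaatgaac
MARS1, chr12:57488024-57488097, plus strand, motif 4 bases before the start: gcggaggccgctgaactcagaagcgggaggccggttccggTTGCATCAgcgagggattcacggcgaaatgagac
GARS1, chr7:30594805-30594892, plus strand, motif 33 bases before the start: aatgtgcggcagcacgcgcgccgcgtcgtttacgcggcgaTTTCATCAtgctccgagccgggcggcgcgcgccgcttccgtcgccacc
CARS1, chr11:3057394-3057465, minus strand, motif 2 bases before the start: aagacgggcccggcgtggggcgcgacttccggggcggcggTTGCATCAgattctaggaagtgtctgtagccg
ASNS, chr7:97872429-97872516, minus strand, motif 68 bases before the start: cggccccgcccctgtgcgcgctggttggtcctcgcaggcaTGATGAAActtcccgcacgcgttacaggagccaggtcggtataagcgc
CHAC1, AARS1, MARS1 and CARS1 share the letters TTGCATCA, and GARS1 and ASNS have the form TGATGAAA. The other 9 members with a match were CEBPG, ATF3, IARS1, NARS1, TARS1, SLC3A2, SLC7A1, SLC1A4 and SLC1A5. A match is a run of letters and not a measured binding site.

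Assigned reads numbered 15760259 to 23269315 per library, so that 3 counts, the limit a count of 0 allows, stood for 0.129 to 0.190 CPM before scaling; CPM gives counts relative to the size of a library, elsewhere after TMM scaling. These limits cover counting error only. In SW480 caffeine replicate 2 the mitochondrially encoded genes took 1.63% of the assigned reads, against 4.38% to 6.16% in the other 7 libraries. The epithelial markers EPCAM, KRT8, KRT18 and CDX2 were present in both lines, while CDH1 stayed below 1 CPM in SW480. CDX1 had no count in any library. Of the full list of 8 epithelial markers 7 were tested. With caffeine edgeR called 2 higher and 1 lower in SW620 and 0 in SW480, where DESeq2 called 2 lower. The list summed to 12578 and 11481 CPM in SW620 caffeine libraries against 9960 and 9907 CPM in SW620 controls. In SW480 it summed to 6074 and 6308 CPM with caffeine against 4308 and 5592 CPM in controls. Of 14 fibroblast, leukocyte and endothelial markers, 6 passed the filter on low counts and were tested in edgeR. COL1A1, PECAM1 and VWF were called higher with caffeine in SW620, where 8.10% of all tested genes were called higher. In SW480 none of the 6 was called in either direction (edgeR, with 2 at an unadjusted p under 0.05, and 0 called by DESeq2 or limma-voom). The 14 markers summed to 59.9 to 62.4 CPM in SW620 caffeine libraries against 46.6 to 49.1 CPM in SW620 control libraries, and to 6.69 to 8.43 CPM in SW480 caffeine against 7.68 to 8.81 CPM in SW480 control libraries. COL3A1 had no count in any of the 8 libraries and PTPRC and KDR none in SW620, while LUM, at 29.04 to 33.4 CPM, made up most of the sum in SW620. The part of these markers in the results was not tested. All 42 members passed the filter on low counts and were tested.

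Before treatment the members were set higher in SW620 than in SW480 (the plot of untreated levels). SW620 controls were called higher than SW480 controls for 33 members and lower for 3 (DDIT3, SLC1A4 and SLC1A5), where the background over all 17671 tested genes was 33.0% higher and 32.6% lower. The median log2 difference was 1.08 over the members and 0.03 over all genes tested. All 7 effectors and all 9 synthesis enzymes were called higher in SW620, as were 9 of the 12 in the synthetase group and 4 of 6 regulators. The transporters split, with 4 higher and 2 lower. Among the 36 calls SLC7A1 (log2 0.40, adjusted p = 0.0219) was the 1 that could be lost by leaving out a library. This held for SW480 control replicate 2 (log2 0.24 without it), SW620 control replicate 1 (0.37) and SW620 control replicate 2 (0.44).

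**Figure D1:**
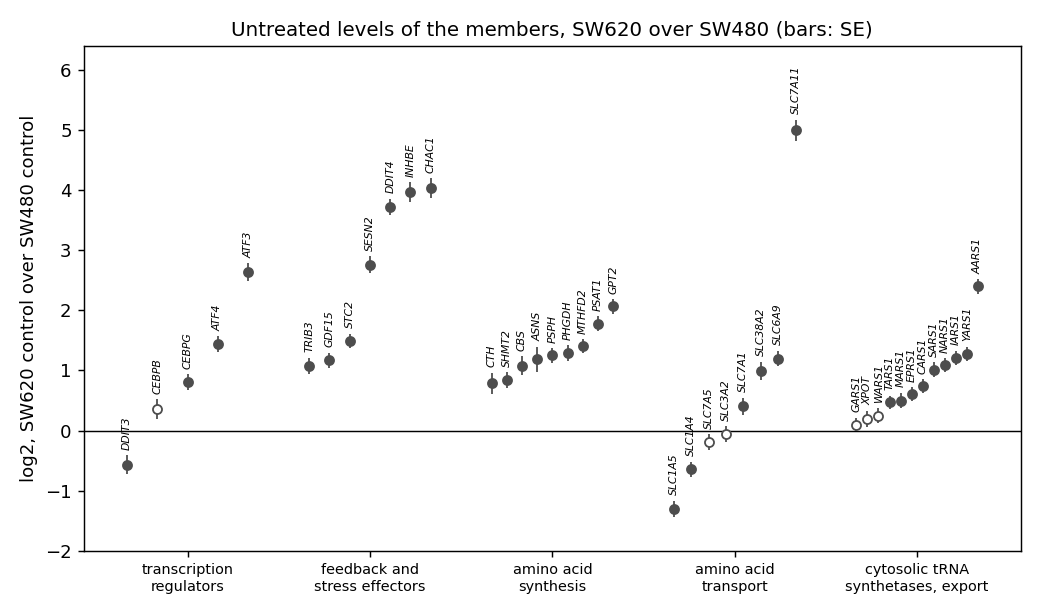
Log2 difference of SW620 control over SW480 control for 41 members, by role, with SE; filled points have an adjusted p under 0.05 and NUPR1, which had 2 counts in the SW480 controls, is left out. Effectors and synthesis enzymes lie above 0 throughout, with SLC7A11, CHAC1 and INHBE highest, and the transporters spread to both sides.

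The cystine importer SLC7A11, which exchanges glutamate for cystine and so feeds glutathione, stood furthest apart among the well-counted members. It had 233 and 236 CPM in the SW620 controls against 6.96 and 7.70 CPM in the SW480 controls (log2 difference 5.00, SE 0.17, adjusted p = 2.34e-13). CHAC1, an enzyme that breaks down glutathione, reached 100.1 and 105 CPM in SW620 controls against 5.20 and 7.30 CPM in SW480 controls, a log2 difference of 4.03 (SE 0.17). For INHBE, which encodes an inhibin beta subunit, the controls held 73.8 and 80.3 CPM in SW620 and 4.599 and 5.25 CPM in SW480 (log2 difference 3.96, SE 0.17). DDIT4, an inhibitor of mTORC1, differed by 3.72 on the log2 scale and SESN2, a leucine sensor that also restrains mTORC1, by 2.76. NUPR1, a small stress-induced chromatin protein, was close to absent in SW480: 441 counts in the SW620 controls stood against 2 in the SW480 controls, a ratio of scaled counts of 190.3 with a 95% counting interval of 52.4 to 1576. The synthesis enzymes lay closer together, between log2 0.79 for CTH and 2.07 for GPT2, an alanine aminotransferase. PSAT1, of serine synthesis, was 1.78 higher and AARS1, which charges alanine, 2.40 higher. ATF4 mRNA itself was 1358 and 1316 CPM in the SW620 controls against 449 and 538 CPM in the SW480 controls (log2 difference 1.44, SE 0.13). The groups did not overlap for any of the genes in this paragraph.

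The exceptions were transporters and DDIT3. SLC1A5, the main glutamine importer, had 421 and 444 CPM in SW620 controls against 959 and 1172 CPM in SW480 controls (log2 difference -1.30, SE 0.14). SLC1A4, a related carrier of alanine, serine and cysteine, was 0.64 lower on the log2 scale. DDIT3, which encodes the pro-apoptotic factor CHOP, had 35.1 and 35.7 CPM in SW620 against 47.0 and 57.8 CPM in SW480 controls (log2 difference -0.56, adjusted p = 0.00423). The leucine carrier SLC7A5 and its partner chain SLC3A2 were not called, at -0.20 and -0.06. Also uncalled were CEBPB (0.36), GARS1 (0.10), WARS1 (0.25) and XPOT (0.19). GARS1 and AARS1 thus differed between the lines by 0.10 and 2.40 on the log2 scale, although both encode synthetases with the motif.

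Levels were also set per kilobase of exon, where the length takes all annotated exons of a gene together and not the transcripts in use. A gene with many annotated exon bases outside its main transcript is placed too low, so the order between genes is approximate. On this scale ATF4 mRNA was the most abundant member in SW620 controls, at 532 CPM per kb. It was followed by DDIT4 at 346, PSAT1 at 259 and SLC7A5 at 241 CPM per kb. In SW480 controls the order began with SLC1A5 at 320 CPM per kb, SLC7A5 at 276, ATF4 at 196 and SLC3A2 at 128 CPM per kb. DDIT4 took place 2 of the 42 in SW620 controls and place 22 in SW480 controls. The lowest levels in both lines were those of NUPR1, CBS, ASNS and SLC7A11 in SW480, and of NUPR1, CBS, ASNS and CTH in SW620. Of these, the ASNS gene shares 1985 of its 4455 exon bases with AC079781.5 on the same strand and CBS has a near-identical copy, CBSL, so that both levels are uncertain.

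With caffeine, stress effectors of the ATF4 response rose in SW480, led by INHBE, CHAC1, SESN2 and DDIT4, together with some synthesis enzymes and synthetases. In SW480 13 members were called higher and 0 lower, against a background of 1.67% higher and 1.93% lower over all tested genes. The 0 rests on edgeR's quasi-likelihood test; 2 members were lower at an unadjusted p under 0.05 (GDF15 and SLC38A2), and DESeq2 called 1 lower and limma-voom 0. The members' median log2 fold change was 0.37, against 0 over all genes tested. Of the 42, 38 had a positive estimate and 36 had both caffeine libraries above both control libraries, a pattern that 21.5% of all tested genes showed. GDF15 and SLC38A2 had both caffeine libraries below both controls (background 21.5%), and DDIT3, CTH, SLC1A5 and XPOT overlapped. These results share the SW480 controls with the comparison of untreated lines.

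The largest responses were among the effectors, of which 5 of 7 rose. INHBE had 14.8 and 15.8 CPM in SW480 caffeine libraries against 4.599 and 5.25 CPM in SW480 controls. Its caffeine values stood about 3.10-fold over the controls (log2 fold change 1.63, SE 0.17, adjusted p = 9.56e-05). CHAC1 had 15.96 and 16.6 CPM with caffeine against 5.20 and 7.30 CPM in controls (log2 fold change 1.38, SE 0.17, adjusted p = 0.000416). SESN2 was at 20.98 and 20.4 CPM with caffeine and at 10.6 and 9.86 CPM in controls (log2 fold change 1.01, SE 0.14). For SESN2 the caffeine libraries differed from each other far less than from the controls. DDIT4 reached 100.1 and 100.9 CPM with caffeine, against 50.2 and 57.7 CPM in controls (log2 fold change 0.90, SE 0.12, adjusted p = 0.000893). TRIB3, a pseudokinase that binds ATF4 and DDIT3 and restrains them, had 163 and 184 CPM with caffeine against 99.5 and 128 CPM in controls (log2 fold change 0.61, SE 0.13, adjusted p = 0.0193). STC2, a secreted glycoprotein, was at 0.36 and not called. GDF15, a secreted stress hormone, ran the other way without passing the test, with 102 and 126 CPM with caffeine against 132 and 157 CPM in controls (log2 fold change -0.34, adjusted p = 0.158).

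Of the regulators 0 of 6 passed the edgeR test in SW480, with 4 at an unadjusted p under 0.05, 2 called by DESeq2 and 1 by limma-voom. ATF4 mRNA had 652 and 689 CPM with caffeine against 449 and 538 CPM in SW480 controls. Both caffeine libraries lay above both controls, and the edgeR log2 fold change was 0.44 (SE 0.13, adjusted p = 0.0659). The rise of ATF4 was called by the DESeq2 Wald test (adjusted p = 0.0185) and by limma-voom (adjusted p = 0.0487). With no filter on low counts edgeR called it too (adjusted p = 0.0253). CEBPB and CEBPG, C/EBP partners of ATF4, had log2 fold changes of 0.58 and 0.39, with adjusted p of 0.0580 and 0.101. ATF3 was at 0.34. DDIT3 gave -0.11, with 53.9 and 43.6 CPM with caffeine against 47.0 and 57.8 CPM in controls, and the groups overlapped. NUPR1 had 5 counts over both caffeine libraries and 2 over both controls, at the floor in each.

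The synthesis enzymes had 3 of 9 members called, with a median of 0.38. GPT2 was at 97.0 and 109.9 CPM in SW480 caffeine libraries and at 66.7 and 66.9 CPM in SW480 controls (log2 fold change 0.63, SE 0.12, adjusted p = 0.00974). MTHFD2, of mitochondrial one-carbon metabolism, had 224 CPM in each caffeine library against 143 and 163 CPM in controls (log2 fold change 0.55, SE 0.12, adjusted p = 0.0177). PSAT1 had 241 and 233 CPM with caffeine against 158 and 173 CPM in controls (log2 fold change 0.52, SE 0.12, adjusted p = 0.0242). All 3 had caffeine libraries clear of the controls. PHGDH and PSPH, which act before and after PSAT1 in serine synthesis, gave 0.38 and 0.37 without passing the test. ASNS, which makes asparagine, gave 0.66 at an SE of 0.22, and the remaining 3 enzymes, SHMT2, CTH and CBS, gave 0.10 to 0.28.

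Among 8 transporters SLC7A11 alone was called in SW480. It had 12.7 and 13.8 CPM with caffeine against 6.96 and 7.70 CPM in controls (log2 fold change 0.86, SE 0.17, adjusted p = 0.0141), which left it far under its SW620 level. SLC6A9, a glycine carrier, was near the threshold at 28.1 and 29.2 CPM with caffeine against 20.4 and 21.2 CPM in controls (log2 fold change 0.46, adjusted p = 0.0587). SLC38A2, a carrier of small neutral amino acids, was at 366 and 312 CPM with caffeine and 521 and 405 CPM in controls (log2 fold change -0.45, adjusted p = 0.113). It was the 1 member called lower by DESeq2. SLC7A5, SLC3A2 and SLC7A1, the arginine and lysine carrier, gave 0.25 to 0.34, and SLC1A4 and SLC1A5 gave 0.15 and 0.00.

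In the synthetase group 4 of 12 were called and the median was 0.34, so that the shifts were smaller and more even than those of the effectors. MARS1, which charges methionine, had 390 and 470 CPM in SW480 caffeine libraries against 277 and 325 CPM in SW480 controls (log2 fold change 0.52, SE 0.13, adjusted p = 0.0356). AARS1 had 208 and 227 CPM with caffeine against 147 and 163 CPM in controls (log2 fold change 0.49, SE 0.12, adjusted p = 0.0328). GARS1, for glycine, had 565 and 559 CPM with caffeine against 401 and 428 CPM in controls (log2 fold change 0.44, SE 0.11, adjusted p = 0.0421). CARS1, for cysteine, had 134 and 139 CPM with caffeine against 93.9 and 107 CPM in controls (log2 fold change 0.44, SE 0.12, adjusted p = 0.0452). These 4 all hold the motif shown above, as do 3 of the 8 in the group that were not called, where YARS1 had no window. Over all 42 members, those without a window included, 5 of the 13 called higher in SW480 held the motif and 10 of the 29 not called. In SW620 it was held by 2 of the 10 called lower and 13 of the 31 not called. The other 7 synthetases, for tryptophan, serine, asparagine, glutamate and proline, isoleucine, tyrosine and threonine, had log2 fold changes of 0.21 to 0.40, and XPOT had -0.21.

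The 13 calls of SW480 differed in how much they leaned on single libraries. DDIT4, SESN2, CHAC1 and INHBE were called with any 1 library left out. The other 9 were not called without SW480 caffeine replicate 2, the library with the low mitochondrial share (adjusted p 0.117 to 0.344), and 8 of them, all but GPT2, were not called without SW480 control replicate 1 (0.0732 to 0.210). PSAT1, GARS1 and CARS1 were lost without SW480 caffeine replicate 1 (0.0505 to 0.0608), and GARS1 and CARS1 also without either SW620 caffeine library (0.0657 to 0.0670). Without either SW620 control library, which enters only the shared estimate of the spread, PSAT1, AARS1, GARS1, MARS1 and CARS1 were lost (0.0572 to 0.115). The count of members called higher ran from 4 to 19 over the 8 left-out libraries. With the mitochondrially encoded genes taken out, all 13 were called.

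**Figure D2:**
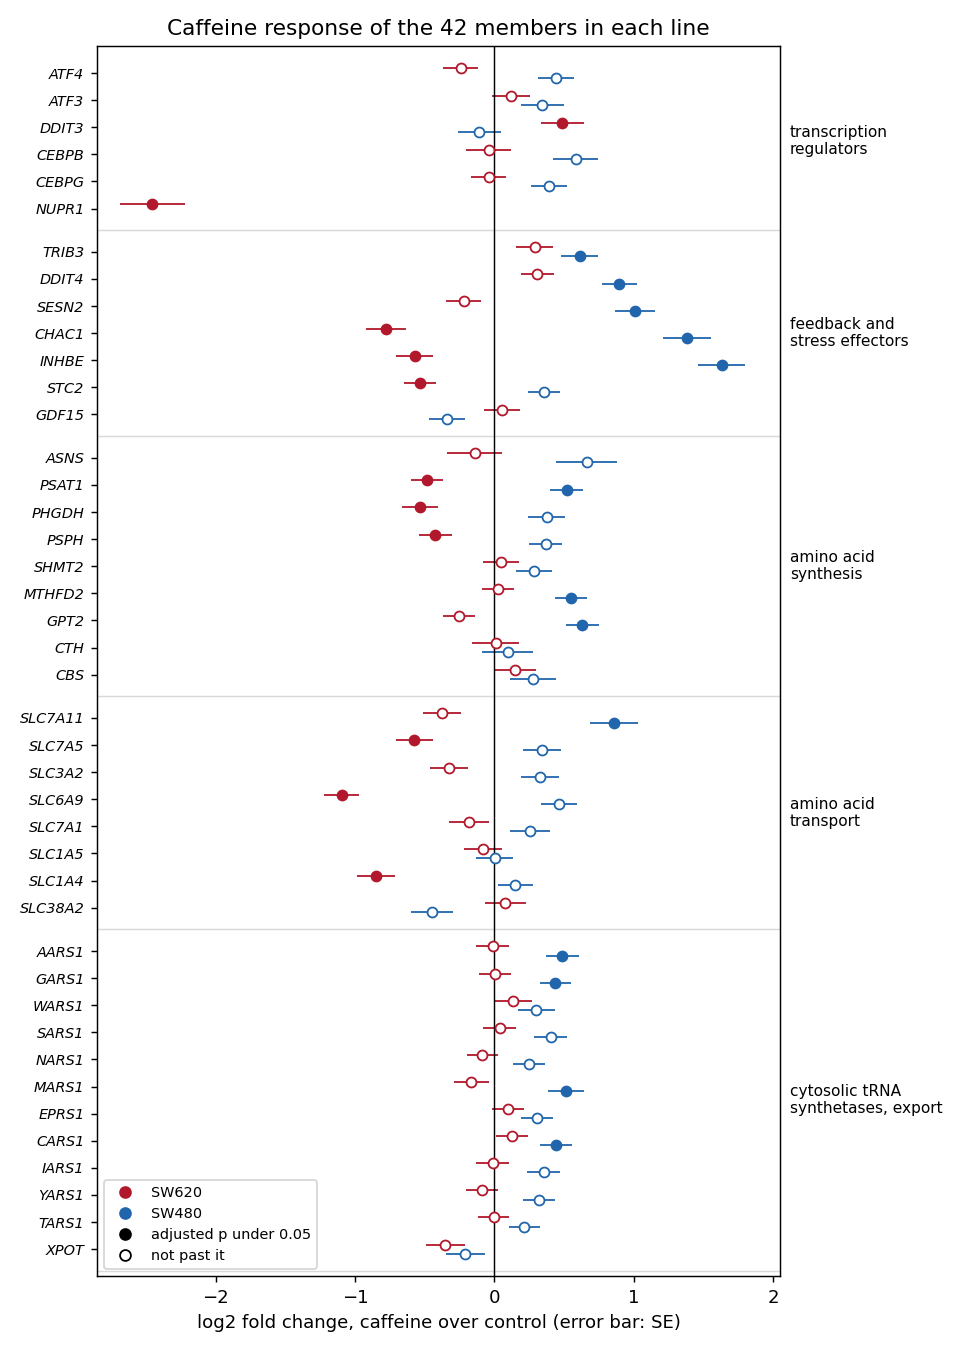
Log2 fold change of caffeine over control with SE for each of the 42 members by role, red for SW620 and blue for SW480; filled points have an adjusted p under 0.05, and NUPR1 in SW480 is not drawn because it rests on 5 and 2 counts. In SW480 all drawn members but DDIT3, GDF15, SLC38A2 and XPOT have a positive estimate, while in SW620 the called members other than DDIT3 lie below 0.

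In SW620 the called members fell, apart from DDIT3: NUPR1, CHAC1, INHBE and STC2, the serine pathway and the transporters SLC6A9, SLC1A4 and SLC7A5. Those that fell had the higher untreated level in SW620, except SLC1A4, which was lower, and SLC7A5, which was not called between the controls. In SW620 1 member was called higher and 10 lower, against a background of 8.10% higher and 6.25% lower. The members' median log2 fold change was -0.08, against -0.01 over all tested genes. Both caffeine libraries were below both controls for 20 members and above them for 9, where all tested genes gave 32.4% and 29.7%, and 13 overlapped. The SW620 controls also serve in the comparison of untreated lines.

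NUPR1 fell most, at 2.08 and 1.96 CPM in SW620 caffeine libraries against 10.98 and 11.2 CPM in SW620 controls. Those levels are 74 against 441 counts, a ratio of scaled counts of 0.180 with a 95% counting interval of 0.138 to 0.230 (log2 fold change -2.45, SE 0.23, adjusted p = 3.41e-06). DDIT3 was the member that rose, with 55.7 and 43.8 CPM with caffeine against 35.1 and 35.7 CPM in controls (log2 fold change 0.49, SE 0.16, adjusted p = 0.0448). Its libraries did not overlap, but the caffeine pair was far apart, and its adjusted p was 0.0534 with limma-voom. DDIT3 shares 413 exon bases with genes on the opposite strand, MARS1 among them, and 105 with AC022506.1 on its own strand, and the strand setting of the counting is not given in the sources used here. ATF4 mRNA was at 1152 and 1110 CPM with caffeine and 1358 and 1316 CPM in controls, without overlap (log2 fold change -0.24, SE 0.13, adjusted p = 0.231).

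The effectors had 3 of 7 members called, all lower. CHAC1 fell to 55.1 and 64.4 CPM in SW620 caffeine libraries, against 100.1 and 105 CPM in SW620 controls (log2 fold change -0.78, SE 0.14, adjusted p = 0.00138). INHBE fell to 46.6 and 57.0 CPM with caffeine, against 73.8 and 80.3 CPM in controls (log2 fold change -0.57, SE 0.13, adjusted p = 0.00907). STC2 fell to 213 and 243 CPM with caffeine, against 333 and 326 CPM in controls (log2 fold change -0.53, SE 0.12, adjusted p = 0.00534). Each of the 3 had caffeine libraries clear of the controls. SESN2 was at 55.4 and 63.5 CPM with caffeine and 71.1 and 67.6 CPM in controls, and was not called (log2 fold change -0.22, adjusted p = 0.270). DDIT4 had 929 and 837 CPM with caffeine against 717 and 708 CPM in controls, and TRIB3 had 276 and 310 CPM against 239 and 241 CPM. Both had caffeine libraries above the controls and neither passed the test (log2 fold changes 0.31 and 0.29, adjusted p 0.0946 and 0.158).

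The serine pathway fell as a group of 3 enzymes. PHGDH, its entry enzyme, had 231 and 228 CPM in SW620 caffeine libraries against 320 and 345 CPM in SW620 controls (log2 fold change -0.53, SE 0.13, adjusted p = 0.0122). PSAT1 had 384 and 428 CPM with caffeine against 545 and 591 CPM in controls (log2 fold change -0.48, SE 0.12, adjusted p = 0.0111). PSPH, the last step, had 116 and 124 CPM with caffeine against 155 and 165 CPM in controls (log2 fold change -0.42, SE 0.12, adjusted p = 0.0220). GPT2 was at 228 and 241 CPM with caffeine and 292 and 268 CPM in controls (log2 fold change -0.25, adjusted p = 0.162). MTHFD2, with a log2 fold change of 0.03, was not called. Over the 9 synthesis enzymes the log2 fold changes ran from -0.53 to 0.15.

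Transport had 3 of 8 members called lower, with a median log2 fold change of -0.35. SLC6A9 fell to 21.8 and 22.7 CPM in SW620 caffeine libraries, against 48.5 and 46.9 CPM in SW620 controls (log2 fold change -1.10, SE 0.13, adjusted p = 2.63e-05). SLC1A4 fell to 19.8 and 21.8 CPM with caffeine, against 35.5 and 39.4 CPM in controls (log2 fold change -0.85, SE 0.13, adjusted p = 0.000447). The caffeine level of SLC6A9 was thus 0.468-fold its control and that of SLC1A4 0.555-fold. SLC7A5 fell to 692 and 843 CPM with caffeine, against 1188 and 1098 CPM in controls (log2 fold change -0.58, SE 0.13, adjusted p = 0.00827). Its partner chain SLC3A2 had 502 and 510 CPM with caffeine against 643 and 627 CPM in controls and was not called (log2 fold change -0.33, adjusted p = 0.121). SLC7A11 was at 153 and 208 CPM with caffeine and 233 and 236 CPM in controls, below the controls in both libraries but wide apart (log2 fold change -0.38, adjusted p = 0.0800).

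The synthetase group showed 0 of 12 calls in SW620 with edgeR, 1 member at an unadjusted p under 0.05 and 0 calls by DESeq2 and by limma-voom. Its median log2 fold change was -0.01 and its range -0.35 to 0.14. AARS1 had 797 and 823 CPM with caffeine against 820 and 814 CPM in controls, and GARS1 had 443 and 450 CPM against 441 and 449 CPM. In both genes the caffeine and control libraries overlapped. MARS1 had 364 and 395 CPM with caffeine against 428 and 423 CPM in controls (log2 fold change -0.16, adjusted p = 0.437), and CARS1 gave 0.13.

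In SW620, NUPR1, CHAC1, SLC6A9 and SLC1A4 were called with any 1 library left out. The other 7, DDIT3, INHBE, STC2, PSAT1, PHGDH, PSPH and SLC7A5, were not called without SW620 caffeine replicate 1 (adjusted p 0.0686 to 0.333), without SW620 control replicate 1 (0.0543 to 0.235) or without SW620 control replicate 2 (0.0652 to 0.241). PHGDH and PSPH were also lost without SW620 caffeine replicate 2 (0.0842 and 0.0883). The count of members called lower was 4 to 12 over the 8 left-out libraries.

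**Figure D3:**
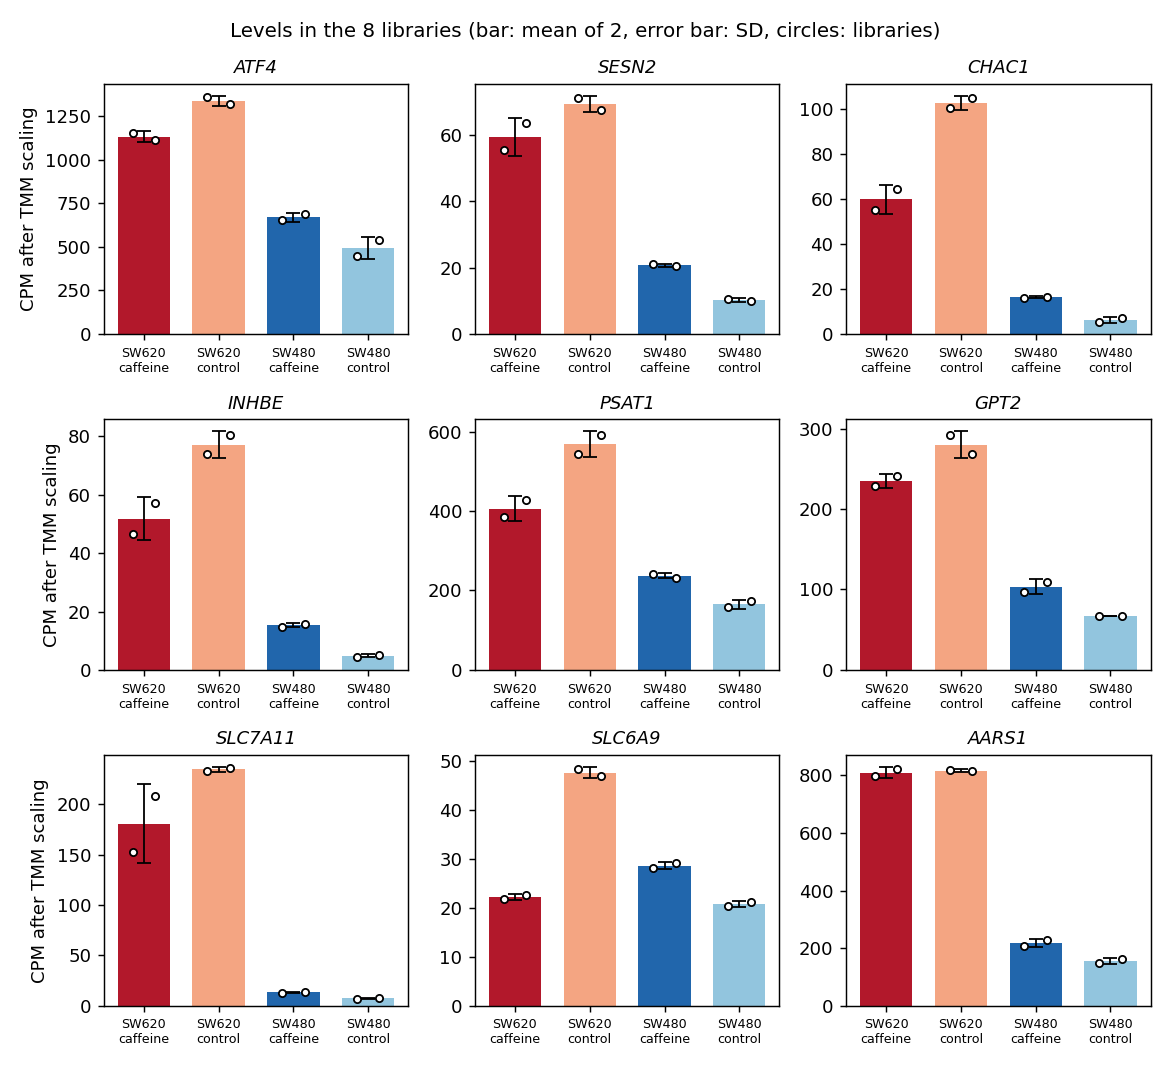
CPM after TMM scaling of 9 members in the 8 libraries; bars are means of 2 libraries, error bars SD and circles the libraries, with SW620 caffeine, SW620 control, SW480 caffeine and SW480 control in turn. INHBE and CHAC1 lie higher with caffeine in SW480 and lower with caffeine in SW620, and for both genes every SW620 library stays above every SW480 library.

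The difference between the lines' responses was tested directly, as the SW620 effect minus the SW480 effect. It was called lower for 16 members and higher for 0, against a background of 2.47% lower and 4.24% higher. For the 0 higher, edgeR had 3 members at an unadjusted p under 0.05, and DESeq2 and limma-voom called 0. The median over the members was -0.47 on the log2 scale, against -0.02 over all tested genes, and 39 of 42 estimates were negative. By role the lower calls were 5 of 7 effectors, 4 of 9 synthesis enzymes, 5 of 8 transporters, 1 of 6 regulators and 1 of 12 in the synthetase group.

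Among the called members the widest differences were those of INHBE, at -2.20 (SE 0.22, adjusted p = 1.90e-05), and CHAC1, at -2.16 (SE 0.22, adjusted p = 2.27e-05). Both fell in SW620 and rose in SW480, as did PSAT1 (difference -1.003, SE 0.17, adjusted p = 0.00171). These were the 3 members called in both lines, 27.3% of the 11 called in SW620 and 23.1% of the 13 called in SW480; none was called in the same direction in both. SLC6A9 differed by -1.56 (SE 0.18, adjusted p = 7.45e-05), SESN2 by -1.23 (adjusted p = 0.000980) and SLC7A11 by -1.23 (adjusted p = 0.00310). SLC1A4, STC2, GPT2, PHGDH, PSPH and SLC7A5 differed by -0.999 to -0.79 with adjusted p between 0.00366 and 0.00866. ATF4 mRNA differed by -0.68 (SE 0.18, adjusted p = 0.0303), although its change passed the edgeR test in neither line. In SW480 the DESeq2 Wald test and limma-voom did call ATF4 higher. MARS1 differed by -0.68 as well (adjusted p = 0.0314), SLC3A2 by -0.65 (adjusted p = 0.0495) and DDIT4 by -0.59 (adjusted p = 0.0479). The DDIT4 difference is one of size, since its estimate was positive in both lines.

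For the tRNA synthetases the direct test gave less. Their differences ran from -0.68 to -0.15 over the 12 of the group with a median of -0.35, and MARS1 was the member called. AARS1, GARS1 and CARS1, which rose in SW480, had differences of -0.50, -0.43 and -0.31 with adjusted p of 0.0819, 0.115 and 0.271. TRIB3 (-0.32, adjusted p = 0.325) and MTHFD2 (-0.52, adjusted p = 0.0658), which also rose in SW480, were not called in the difference either. The Wald test of DESeq2 on the same libraries called the difference for AARS1 (adjusted p = 0.0411) and MTHFD2 (adjusted p = 0.0361). INHBE, MARS1 and DDIT3 lie in that order on chromosome 12 between 57452323 and 57521737 (GRCh38, GENCODE 29). In SW480 INHBE and MARS1 rose and DDIT3 did not pass the test, and in SW620 INHBE fell, DDIT3 rose and MARS1 did not pass.

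Of the 16 differences, 9 were called with any 1 library left out: SESN2, CHAC1, INHBE, STC2, PSAT1, GPT2, SLC7A11, SLC6A9 and SLC1A4. ATF4, DDIT4, SLC3A2 and MARS1 were lost without either SW620 caffeine library, either SW620 control library, SW480 caffeine replicate 2 or SW480 control replicate 1 (adjusted p 0.0644 to 0.204). DDIT4 was also lost without SW480 caffeine replicate 1 (0.0607), SLC7A5 without SW620 caffeine replicate 1 or SW620 control replicate 1 (0.0538 and 0.0738), and PHGDH and PSPH without SW620 control replicate 2 (0.0580 and 0.0829). The count of lower calls ran from 10 to 20.

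Genes next to the members in function were measured in the same fit (the plot of members and neighbouring lists). Of 12 further ATF4 targets, 1 was called higher and 3 lower in SW620, and 4 higher and 1 lower in SW480. All tested genes gave 8.10% higher and 6.25% lower in SW620, and 1.67% higher and 1.93% lower in SW480. The medians of these targets were -0.08 in SW620 and 0.39 in SW480. ADM2, the peptide hormone adrenomedullin 2, had 49.5 and 53.1 CPM in SW620 caffeine against 70.1 and 64.3 CPM in SW620 control libraries (log2 fold change -0.39, adjusted p = 0.0492). In SW480 it had 20.2 and 19.5 CPM with caffeine against 9.08 and 7.94 CPM in controls (log2 fold change 1.22, adjusted p = 0.000323). JDP2, a repressor of the AP-1 family, fell to 15.8 and 16.8 CPM with caffeine in SW620, against 34.4 and 33.3 CPM in controls (log2 fold change -1.05). PCK2, the mitochondrial phosphoenolpyruvate carboxykinase, rose in SW480 (0.74, adjusted p = 0.0108), as did VLDLR (0.71). The hormone FGF21 rose in SW480 on 39 against 8 counts, a ratio of scaled counts of 4.24 with a 95% counting interval of 1.95 to 10.5, and fell in SW620 (-1.05, adjusted p = 0.0298). KLHL24, a ubiquitin ligase adaptor, fell in SW480 (-0.82) and NFIL3, a bZIP repressor, rose in SW620 (0.82, adjusted p = 0.000516). The calls of ADM2 in SW480, JDP2 and NFIL3 were made with any 1 library left out. ADM2 in SW620 was lost without any 1 of the 4 SW620 libraries (adjusted p 0.137 to 0.358), and so was FGF21 in SW620 (0.0980 to 0.261). With all 8 libraries the Wald test of DESeq2 called neither (0.0651 for ADM2 and 0.210 for FGF21), and ADM2 also missed the threshold in edgeR with DESeq2 size factors (0.0520), with no filter (0.0944) and with the replicate block (0.0785). VLDLR in SW480 was not called by limma-voom (0.0645) or in a separate fit of the line (0.0725). Without SW480 caffeine replicate 2 PCK2, VLDLR, FGF21 and KLHL24 were lost in SW480 (0.172 to 0.319), and without SW480 control replicate 1 too (0.0659 to 0.222); FGF21 was also lost without SW480 control replicate 2 (0.0976) and, like VLDLR, without either SW620 control (0.0514 to 0.0599).

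**Figure D4:**
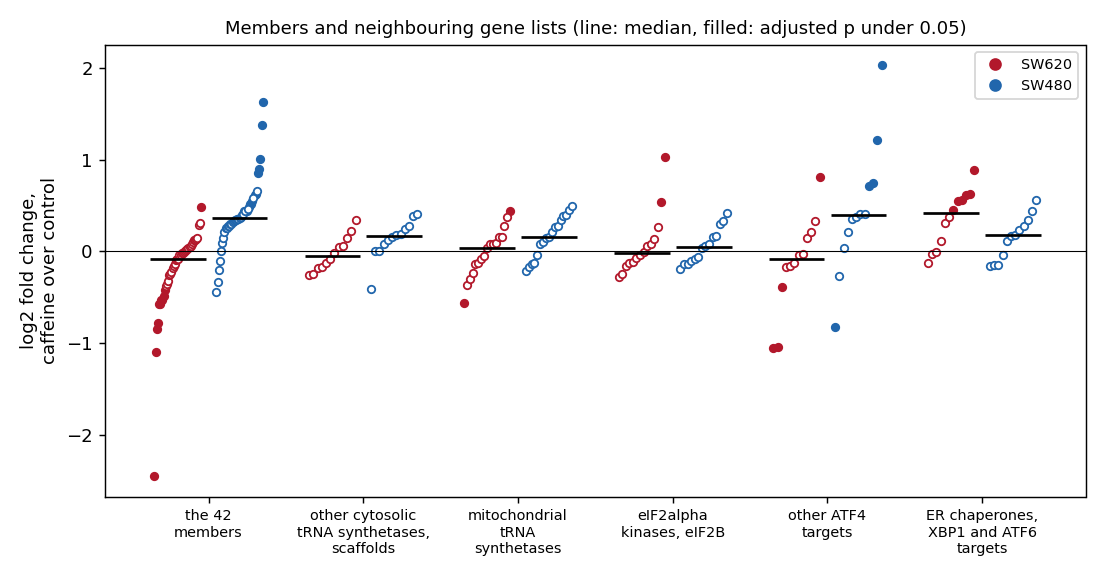
Log2 fold change of caffeine over control for the 42 members and 5 neighbouring gene lists, red for SW620 and blue for SW480; lines are medians and filled points have an adjusted p under 0.05, and NUPR1 in SW480 is left out. The medians of members and other ATF4 targets lie near 0 in SW620 and at 0.37 to 0.39 in SW480, and the endoplasmic reticulum chaperones show the higher median in SW620.

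The remaining cytosolic synthetases and scaffold proteins, 12 genes, had 0 calls in either line with edgeR. At an unadjusted p under 0.05 they had 2 in each line; DESeq2 called 1 in SW620 and 0 in SW480, and limma-voom 0 in both. Their median was -0.05 in SW620 and 0.17 in SW480, against 0.34 for the members' synthetase group in SW480. Of the 17 mitochondrial synthetases MARS2 fell in SW620 (-0.56, adjusted p = 0.00821), where 6.25% of all tested genes were called lower. It was lost without SW620 caffeine replicate 1 or either SW620 control (adjusted p 0.0858 to 0.0931). In SW480 edgeR called 0 of the 17, with 5 at an unadjusted p under 0.05 and 0 by DESeq2 or limma-voom. Untreated, the remaining cytosolic synthetases had 4 of 12 genes higher and 4 lower in SW620 than in SW480, with a median of 0.00. Over all tested genes 33.0% were called higher and 32.6% lower. The members' synthetase group had 9 of 12 higher and 0 lower (edgeR, with 0 lower at an unadjusted p under 0.05).

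Upstream of ATF4, 14 genes for the eIF2alpha kinases, phosphatase subunits and eIF2B had 2 calls, both higher in SW620. Of all tested genes 8.10% were called higher there. PPP1R15A (GADD34), the stress-induced phosphatase subunit that reverses eIF2alpha phosphorylation, rose to 157 and 159 CPM in SW620 caffeine libraries, against 81.7 and 73.2 CPM in SW620 controls (log2 fold change 1.03, SE 0.13, adjusted p = 8.02e-05). EIF2AK3 (PERK), the kinase of the endoplasmic reticulum, rose by 0.54 (adjusted p = 0.0128). In SW480 edgeR called 0 of the 14, with 2 at an unadjusted p under 0.05 and 0 by DESeq2 or limma-voom. Against the same background, the 12 chaperones and XBP1 or ATF6 targets of the endoplasmic reticulum had 6 calls in SW620, all higher. HSPA5 (BiP), the main chaperone there, had 1014 and 987 CPM with caffeine against 545 and 535 CPM in SW620 controls (log2 fold change 0.89, SE 0.12, adjusted p = 0.000153). DNAJC3, an HSPA5 co-chaperone, rose by 0.62 and HYOU1, another luminal chaperone, by 0.63. In SW480 0 of the 12 were called by edgeR, 4 were at an unadjusted p under 0.05, and DESeq2 and limma-voom called 0. The difference between lines was called higher for HSPA5 (0.71, adjusted p = 0.0215), DNAJC3 (0.77, adjusted p = 0.0149) and PPP1R15A (0.87, adjusted p = 0.0107). With 1 SW620 control library left out EIF2AK3 (adjusted p 0.103 to 0.166), HYOU1 (0.0669 to 0.0694) and DNAJC3 (0.0633 to 0.0634) were not called in SW620, and EIF2AK3 (0.156) and HYOU1 (0.0967) were not called without SW620 caffeine replicate 2. The difference for HSPA5 was lost without any 1 SW620 library (0.0699 to 0.145), that for DNAJC3 without either SW620 control or SW620 caffeine replicate 2 (0.0743 to 0.102), and that for PPP1R15A without SW620 control replicate 2 (0.0908). In SW620 the 6 called genes of the chaperone list thus rose beside lower CHAC1, INHBE, STC2 and serine pathway mRNA. DDIT3 was called higher there, and DDIT4 and TRIB3 lay above their controls without passing the test. In SW480 5 of 7 effectors rose and no chaperone of the list was called, though 8 of the 12 estimates were positive. The difference between the lines was called for 2 of these 12.

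Summed over the 7 effectors, SW620 caffeine libraries held 1910 and 1914 CPM against 1848 and 1862 CPM in SW620 controls, and SW480 caffeine libraries held 573 and 608 CPM against 423 and 478 CPM in SW480 controls. The synthesis enzymes summed to 2322 and 2460 CPM with caffeine in SW620 against 2659 and 2748 CPM in controls, and in SW480 to 1458 and 1500 CPM with caffeine against 1028 and 1218 CPM in controls. Summed transporter mRNA was 2863 and 3389 CPM with caffeine in SW620 against 3718 and 3744 CPM in controls, and 4061 and 4458 CPM with caffeine in SW480 against 3692 and 3907 CPM in controls. These sums are led by a few abundant genes, which differ between the lines. Among the effectors DDIT4 led in SW620, at a mean of 883 CPM with caffeine and 713 CPM in controls. In SW480 TRIB3 led with caffeine (174 CPM) and GDF15 in controls (144 CPM), where DDIT4 had 100.5 and 53.9 CPM. The transporter sums were led by SLC7A5 and SLC1A5 in SW480 and by SLC7A5 and SLC38A2 in SW620, with SLC3A2 next in both lines. Over all 42 members the caffeine libraries of SW620 held 13071 and 13973 CPM against 14675 and 14692 CPM in SW620 controls, and those of SW480 10300 and 10830 CPM against 8374 and 9052 CPM in SW480 controls. The members' summed mRNA in treated SW480 cells thus stayed under that of treated SW620 cells. In bulk libraries such as these, fewer cells of a state and less RNA per cell cannot be told apart.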

How the data were processed

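Poly-A RNA of 8 libraries, 2 for each line and treatment, was analysed. Per the labels, RNA integrity numbers were at least 8 and 75 bp single-end reads came from directional libraries. Per the submitters' processing notes, featureCounts (version 2.0.5), STAR (version 2.7.3a) and Trim Galore were used with the genome build hg38. The authors deposited raw read counts per Ensembl gene; the strand setting, annotation release and filters are not given in the sources used here. Reads that overlapped several genes, 7.36% to 8.37%, and reads of low mapping quality, 13.3% to 17.5%, were left unassigned in the deposited counts, which can lower genes with near copies. The 12 assignment lines of each file were left out of all totals. Symbols matched 62625 of 62649 IDs, and all 42 members were in GENCODE 29, which gave coordinates and exon lengths; 15 shared exon bases with another gene, 3 of them on the same strand.

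All 8 libraries entered 1 fit in edgeR 4.0.16 (R 4.3.3; filterByExpr, TMM, robust quasi-likelihood F test, 4 group means), with Benjamini-Hochberg adjustment over 17671 genes and a threshold of 0.05. The biological coefficient of variation was 10.5%. Levels are CPM after TMM scaling. Replicates differed beyond counting noise (chi-square over degrees of freedom 2.96 to 41.8). The alternatives were DESeq2 1.42.0 (size factors and Wald test), limma-voom (limma 3.58.1), no filter, a replicate block, separate fits per line, removal of mitochondrially encoded genes and each library left out. Members, lists, tests and alternatives were chosen with earlier results of these data known. Named genes are the members called in a line or in the difference, up to 5 per role by adjusted p, ATF4, and up to 3 called genes per neighbouring list; others were named after their values were seen. The result of 1 list member is not reported here.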

Additional observations from a re-analysis of the deposited data

Results flagged for a closer look

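The results listed here have in common that the caffeine effect differed between SW620 and SW480 by the test of the difference itself (edgeR quasi-likelihood, SW620 effect minus SW480 effect, log2). Among the members these were INHBE (-2.20), CHAC1 (-2.16), SLC6A9 (-1.56), SLC7A11 (-1.23), SESN2 (-1.23), PSAT1 (-1.003) and SLC1A4 (-0.999). PHGDH (-0.91), SLC7A5 (-0.92), STC2 (-0.89), GPT2 (-0.89), PSPH (-0.79), ATF4 (-0.68), MARS1 (-0.68), SLC3A2 (-0.65) and DDIT4 (-0.59) complete the 16. Among the neighbouring genes, FGF21 (-3.08), ADM2 (-1.61) and JDP2 (-1.46) were lower in the difference, and KLHL24 (1.15), NFIL3 (1.09), PPP1R15A (0.87), DNAJC3 (0.77) and HSPA5 (0.71) were higher. With 2 libraries per group, no group was large enough for a check of single outlying libraries.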

How the results depend on the processing

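The count of members called higher in SW480 was 13 and became 7 with a separate fit of each line and 4 to 19 with a library left out. The count lower in SW480, 0, became 1 with no filter and with the DESeq2 Wald test (SLC38A2), and 0 to 1 with a library left out. In SW620 the 1 member called higher became 2 with the DESeq2 Wald test, 0 with limma-voom, 0 with the replicate block, 3 with a separate fit, and 0 to 2 with a library left out; the 10 called lower became 14 with a separate fit and 4 to 12 with a library left out. The difference gave 0 to 1 higher and 10 to 20 lower with a library left out. The cause of these moves was not tested, except that leaving out a library lowers the number of samples. The replicate numbers are not known to pair cultures (same-numbered deviations correlated at 0.0265 in SW480 and 0.0134 in SW620); with the replicate block 12 members were higher in SW480, 10 lower in SW620 and 14 lower in the difference, where DDIT4 and SLC3A2 were lost, as with DESeq2 size factors. SLC1A5 in SW480, 0.00 in the main result, turned to -0.015 with DESeq2 size factors, -0.018 with the DESeq2 Wald test and -0.133 to 0.141 with a library left out. Signs also turned with a library left out for CTH (-0.050 to 0.245), DDIT3 (-0.267 to 0.040) and PPP1R15A (-0.042 to 0.338) in SW480, for AARS1 (-0.036 to 0.011), GARS1 (-0.0077 to 0.0194) and MTHFD2 (-0.029 to 0.084) in SW620, and for SLC3A2 between the controls (-0.217 to 0.085); none of these was called. With the alternatives in edgeR, DESeq2 and limma-voom and with each library left out, 4 of 13 calls in SW480, 4 of 11 in SW620, 9 of 16 differences and 35 of 36 differences between controls passed the threshold throughout.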
